A study of Mus musculus with 4 samples.

Results

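The acinar genes followed here were 9 genes of the exocrine pancreas that were read in islet preparations. They were 8 secreted digestive proteins (Cpa1, Cpb1, Ctrb1, Prss2, Cel, Pnlip, Clps and Rnase1) and Bhlha15, a transcription factor of acinar cells. They were chosen by gene name in the series table and made up 9 of the 26265 genes named on the array. Each had 1 probe with 1 spot, except Clps with 2 probes. The series asked how a glucokinase activator, called GKA in the labels, changes gene expression in islets, the clusters of endocrine cells that lie within the pancreas. Islets isolated from C57BL/6 mice at 8 weeks of age were kept in RPMI1640 with 5.6 mM glucose for 24 h, with 30 µM GKA in 1 group and with DMSO, the vehicle, in the other. The 2 samples of each group were hybridised to 1 Agilent 1-colour array each. All 4 samples were thus bulk RNA of cultured islets, which hold several cell types. Whether replicates were taken from different mice or cultures is not stated in the labels, and the p-values therefore cover only the spread among these 4 samples, which may be technical.

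Acinar cells make the digestive enzymes, pack them as inactive zymogens into granules and release them into the ducts, whereas islets release hormones into the blood. Acinar enzyme RNA is among the most abundant RNA of the whole pancreas, and acinar cells or their RNA can be carried along when islets are isolated. The enzyme genes are driven by the PTF1 complex, which contains PTF1A and RBPJL, while BHLHA15, also known as MIST1, is induced through XBP1 and sets up the secretory apparatus of serous exocrine cells and plasma cells. In such bulk samples fewer acinar cells and less RNA per cell cannot be told apart.

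The stretches before the start of 4 of the genes are shown because these genes stand for the outcomes described below: Bhlha15 rose, Rnase1 fell, Ctrb1 was measured and did not pass, and Prss2 was detected on no array. They are the 250 bases before each RefSeq gene start on GRCm38.p6, written 5′ to 3′ on the gene's strand. Bhlha15 and Rnase1 held none of the searched letters in the stretch shown. Capitals mark the letters TTTCCC, as in the site bound by RBPJ and RBPJL within PTF1, the letters TATAAA of a TATA box, and 2 further motifs, ACGTG, as in sites bound by XBP1, and CATATG, an E-box bound by BHLHA15. Both strands were searched, and no base was shared by 2 motifs in these stretches.
Bhlha15 (chr5:144190036-144190285, plus strand): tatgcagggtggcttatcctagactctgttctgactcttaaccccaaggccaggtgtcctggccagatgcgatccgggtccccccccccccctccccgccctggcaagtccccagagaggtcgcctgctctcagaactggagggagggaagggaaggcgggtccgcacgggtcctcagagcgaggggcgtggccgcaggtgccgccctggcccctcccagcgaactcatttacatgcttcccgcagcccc
Rnase1 (chr14:51146768-51147017, minus strand): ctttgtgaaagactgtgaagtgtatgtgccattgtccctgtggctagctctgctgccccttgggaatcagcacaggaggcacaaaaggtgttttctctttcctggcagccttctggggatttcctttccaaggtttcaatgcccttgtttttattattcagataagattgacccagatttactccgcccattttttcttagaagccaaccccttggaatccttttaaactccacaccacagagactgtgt
Ctrb1 (chr8:111691011-111691260, minus strand): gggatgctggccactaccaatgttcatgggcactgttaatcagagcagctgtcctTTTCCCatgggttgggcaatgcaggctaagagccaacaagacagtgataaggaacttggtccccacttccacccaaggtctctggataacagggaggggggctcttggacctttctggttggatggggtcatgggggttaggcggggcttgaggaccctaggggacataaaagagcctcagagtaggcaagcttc
Prss2 (chr6:41521526-41521775, plus strand): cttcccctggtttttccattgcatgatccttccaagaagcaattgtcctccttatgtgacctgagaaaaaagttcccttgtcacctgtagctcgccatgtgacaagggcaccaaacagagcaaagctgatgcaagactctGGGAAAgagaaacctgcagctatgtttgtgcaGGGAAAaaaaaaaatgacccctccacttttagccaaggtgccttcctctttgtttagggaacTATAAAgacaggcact
Of the 9 genes, 8 had a start region in the RefSeq table, and Clps was the one without. Counted over 300 bases, from 250 before to 50 after the start, TTTCCC was in 4 of the 8 regions (Cel, Cpa1, Prss2 and Ctrb1), against 25.2% of all 32851 regions of that length. TATAAA was in 3 of 8 (Cpb1, Prss2 and Pnlip), against 13.6% of all, and in Cpb1 it began at base 36 after the start. ACGTG was in 2 of 8, against 19.6%, and in Bhlha15 it began at base 20 after the start, outside the stretch shown. CATATG was in 0 of 8, against 3.91%. These matches describe letters only, and nothing was measured at these sites here.

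The scanner software marked 23519 to 25056 probes of an array, or 59.6% to 63.5%, as well above background, which serves as detection here. The lowest intensity of such a spot was 9.94 to 13.9. All 4 arrays came from 1 slide, with the vehicle samples at the first 2 positions and the GKA samples at the last 2, so slide position cannot be told apart from treatment. Values below are intensities as deposited or scaled log2 signals, which are the log2 intensity minus the log2 of the array's 75th percentile of 794 and 811 (vehicle) or 594 and 638 (GKA). In limma, 2944 of 17178 tested genes passed at a Benjamini-Hochberg adjusted p under 0.05, or 17.1%, with 1580 higher and 1364 lower. Directions are relative to that scaling: without scaling the median log2 fold change over tested genes was -0.40, with 750 higher and 7654 lower, and with spike-in scaling it was -0.61, with 342 higher and 6805 lower, against -0.02 in the scaled values.

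Most of the acinar enzymes were dim or not detected in these islets. Of the 9 genes, 5 were well above background on all 4 arrays (Ctrb1, Cel, Clps, Rnase1 and Bhlha15) and were tested, and 4 stayed under the detection mark on every array (Cpa1, Cpb1, Prss2 and Pnlip). Of the 5 tested, Bhlha15 was higher with GKA, Rnase1 was lower, and Ctrb1, Cel and Clps did not pass. That is 1 of 5 higher, where 9.2% of all tested genes were higher, and 1 of 5 lower, where 7.94% were lower. Among the 5, vehicle and GKA arrays were separate in 2, as they were in 65.4% of all tested genes (32.1% higher with GKA, 33.4% lower). With so few genes these shares set nothing apart about them.

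**Figure D1:**
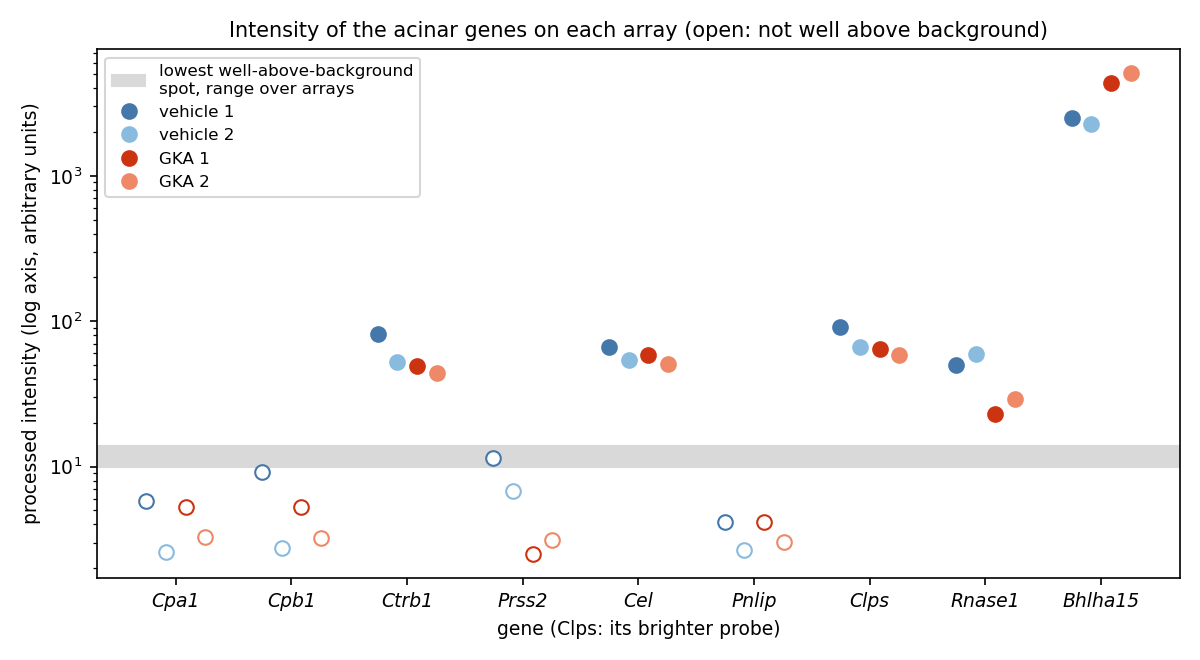
Processed intensity (log axis, arbitrary units) of the 9 genes on each of the 4 arrays, with filled points where the probe was well above background and open points where it was not; the grey band spans the lowest well-above-background intensity of the arrays, 9.94 to 13.9. The 4 open genes, Cpa1, Cpb1, Prss2 and Pnlip, lie in or below the band, and in these unscaled intensities the GKA points lie apart from the vehicle points for Bhlha15 (above) and for Rnase1, Ctrb1, Clps and Prss2 (below).

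The carboxypeptidases and the trypsinogen among the 9 genes were not detected. Cpa1, a carboxypeptidase that trims aromatic and aliphatic residues from the C-terminus (probe on chromosome 6, 30595240 to 30595299 on build mm9), had intensities of 5.75 and 2.60 with vehicle and 5.29 and 3.25 with GKA. Cpb1, which trims basic residues (chromosome 3, 20149467 to 20149526), stood at 9.14 and 2.76 with vehicle and at 5.27 and 3.23 with GKA. Both carboxypeptidases lay under the lowest spots called well above background on the same arrays, and the errors of their spots were 2.20 to 3.21. Prss2, an anionic trypsinogen (chromosome 6, 41473937 to 41473996), stood at 11.4 and 6.83 with vehicle and at 2.51 and 3.14 with GKA. Both vehicle intensities of Prss2 exceeded both GKA intensities, but none was well above background, so no fold is given.

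Ctrb1, a chymotrypsinogen, was the peptidase of the 9 that could be measured (chromosome 8, 114210454 to 114210513). Its intensity was 81.2 and 52.4 with vehicle and 49.1 and 44.2 with GKA, with spot errors of 5.30 to 8.57. The scaled log2 signal was -3.29 and -3.95 with vehicle and -3.60 and -3.85 with GKA, so both GKA arrays lay between the vehicle arrays. The log2 fold change was -0.10 ± 0.24 (adjusted p = 0.792), with a 95% interval of -0.71 to 0.50. In limma it was -0.49 without scaling (adjusted p = 0.127) and -0.70 with spike-in scaling (adjusted p = 0.0532). The interval holds changes in either direction, so 2 arrays per group do not settle whether Ctrb1 changed.

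Among the genes of lipid digestion, Cel and Clps were measured and Pnlip was not. Cel, the bile salt-stimulated lipase (chromosome 2, 28411609 to 28411668), stood at 66.0 and 54.3 with vehicle and at 58.4 and 51.0 with GKA. In scaled log2 signal these were -3.59 and -3.90 against -3.35 and -3.65, which overlap. The log2 fold change of Cel was 0.25 ± 0.17 (adjusted p = 0.356; 95% interval -0.19 to 0.68), and it lay below 0 without scaling, at -0.13, and with spike-in scaling, at -0.35. Clps, the colipase that anchors pancreatic lipase to fat droplets (chromosome 17, 28695162 to 28695221), stood at 90.6 and 66.9 with vehicle and at 63.9 and 58.4 with GKA. Its scaled log2 signals, -3.13 and -3.60 against -3.22 and -3.45, overlapped fully. The log2 fold change of Clps was 0.03 ± 0.19 (adjusted p = 0.920; 95% interval -0.45 to 0.52), and below 0 without scaling, at -0.35, and with spike-in scaling, at -0.56. The second Clps probe (28695761 to 28695820) read 2.09 to 2.87 and was detected on no array, so the 2 probes of this gene disagreed on whether it was detected. Pnlip, the pancreatic triglyceride lipase that colipase serves (chromosome 19, 58755296 to 58755355), stood at 4.15 and 2.67 with vehicle and at 4.14 and 3.05 with GKA, near its spot errors of 2.23 to 3.04.

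Rnase1 was lower with GKA. This secreted ribonuclease of the pancreatic type is also made outside the pancreas, in endothelium among other places. Its probe (chromosome 14, 51764724 to 51764783) had intensities of 50.2 and 59.3 with vehicle and 23.1 and 29.1 with GKA, with spot errors of 3.68 to 6.84. Both GKA arrays lay under both vehicle arrays. The scaled log2 signal was -3.98 and -3.77 with vehicle and -4.68 and -4.45 with GKA. The log2 fold change was -0.69 ± 0.15, or 1.61-fold lower (adjusted p = 0.0352 in limma). The call was lost without vehicle replicate 2 (adjusted p = 0.0745), GKA replicate 1 (0.142) or GKA replicate 2 (0.0887), without the filter on dim probes (0.135) and with normexp background correction, where the change was 0.00 with the 75th percentile (0.989) and -0.26 with quantile normalisation (0.125), and with spike-in scaling the change was -1.28 (0.000388) while unscaled values gave -1.07 (0.00932). Of 11 endothelial markers, all well above background on all 4 arrays, Cdh5 (0.63) and Ramp2 (0.54) were higher, Emcn (-0.76) was lower and 8 did not pass, and the summed level of the list was 4.31 to 4.38 with vehicle and 4.38 to 4.51 with GKA on the scaled log2 scale. That sum takes 1 probe per gene, and the 2 probes of Kdr, a gene of this list, went opposite ways. The Kdr probe used stood at 2.33 and 2.20 with vehicle and at 2.75 and 2.46 with GKA. The other Kdr probe stood at 1.14 and 0.94 with vehicle and at 0.27 and 0.35 with GKA. The part of the endothelial markers in the Rnase1 result was not tested.

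Bhlha15 had the largest change of the 5 tested genes and was bright on every array. Its probe (chromosome 5, 144955175 to 144955234) had intensities of 2494 and 2256 with vehicle and 4371 and 5076 with GKA, with spot errors of 226 to 508. The lowest GKA intensity was thus well over the highest vehicle intensity, before any scaling. In scaled log2 signal Bhlha15 stood at 1.65 and 1.48 with vehicle and at 2.88 and 2.99 with GKA. The log2 fold change was 1.37 ± 0.13, or 2.59-fold higher (adjusted p = 0.00577 in limma; 95% interval 1.05 to 1.70), a change larger than or equal to that of 97.3% of the tested genes in size. It was 0.78 with spike-in scaling (adjusted p = 0.0320) and lost its call when dim probes were kept in (adjusted p = 0.0531). Bhlha15 is also a gene of plasma cells, and of 8 plasma cell markers on the array, a list added after the values of Bhlha15 were seen, 4 lay below the detection mark on all 4 arrays and 1 was marked on a single array; Cd38 (0.62), which other leukocytes and islet cells also make, was higher, while Sdc1 (-0.01) and Prdm1 (0.06) did not pass. The summed level of the 3 tested was -0.47 to -0.35 with vehicle and -0.26 to -0.22 with GKA, and its part in the Bhlha15 result was not tested.

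Few of the other genes of the acinar cell passed, and many were dim. Of 34 further acinar genes in 4 lists, 31 were matched to a gene name on the array and 17 were tested. With spots that carried an outlier mark left out, 11 stayed under the detection mark on every array, Ptf1a among them. Of the 17, 1 was higher, 2 were lower and 14 did not pass, beside 17.1% of all tested genes that passed in either direction. That count is near the share over all genes, and the 2 lower genes, Try4 and Try5, were detected with vehicle only. Their median log2 fold change was -0.13, the same with genes that have only a bound set to it, beside -0.02 over all tested genes.

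**Figure D2:**
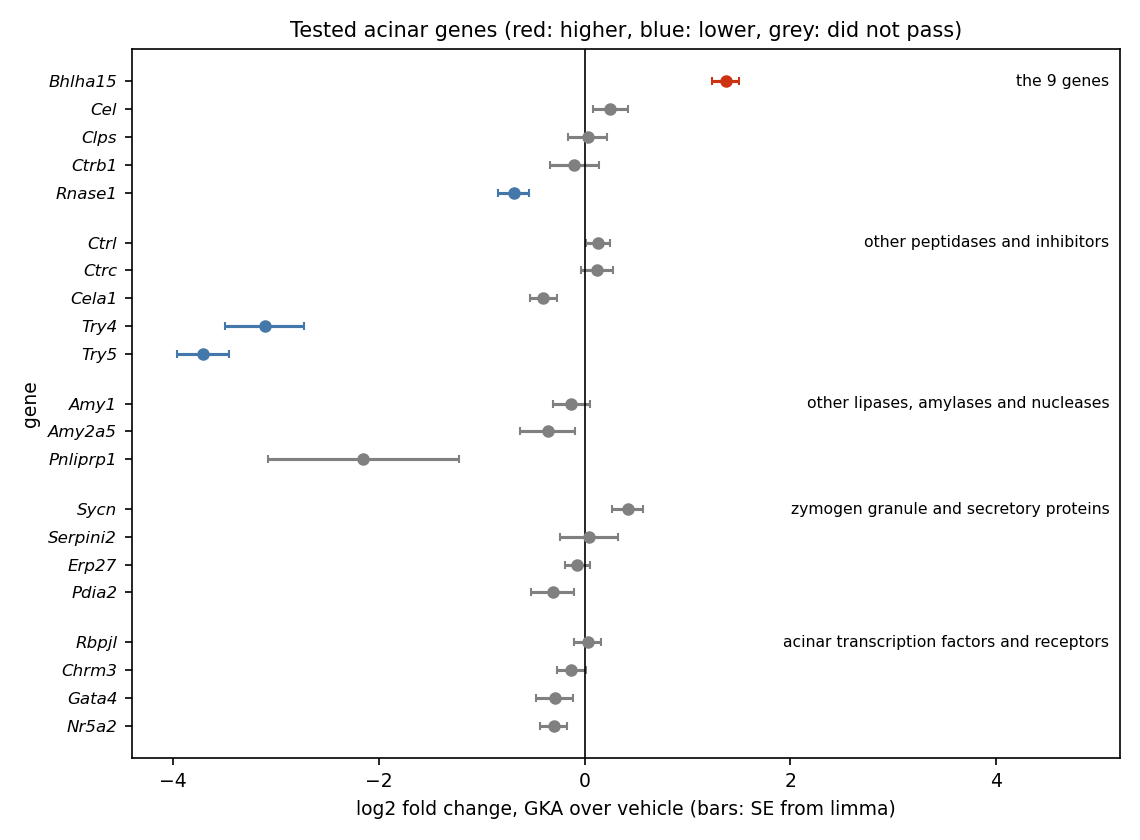
Log2 fold change of GKA over vehicle (points) with its SE from limma (bars) for the 5 tested genes of the 9 and 16 of the 17 tested genes of 4 further acinar lists, 2 arrays per group. Bhlha15 (1.37) lies above 0 and passed, Rnase1 (-0.69), Try4 and Try5 lie below 0 and passed, and the fitted values of Try4 and Try5 are not bounds.

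Among the other peptidases the 2 trypsinogen genes Try4 and Try5 were lower. Try5 (chromosome 6, 41261247 to 41261306) had intensities of 115 and 91.2 with vehicle and 4.61 and 7.78 with GKA, where it was not well above background on either array. A bound was taken against the higher of its own signal and the lowest well-above-background signal of each GKA array. By that bound Try5 was 6.77-fold lower with GKA (adjusted p = 0.00315 in limma for the fitted change). The bound is not strict, as some undetected spots were brighter, such as Lyz2 at 18.6 on GKA replicate 2. Try4 (chromosome 6, 41255472 to 41255531) stood at 57.5 and 44.7 with vehicle and at 6.46 and 3.13 with GKA. By the same kind of bound Try4 was 3.35-fold lower (adjusted p = 0.0113 in limma for the fitted change). With normexp background correction and the 75th percentile both still passed, at much smaller fitted log2 changes of -0.69 for Try5 and -0.53 for Try4, and when dim probes were kept in Try4 lost its call (adjusted p = 0.0719). Both genes entered the test only through the vehicle arrays, where they were detected, so a difference between the groups was built into their selection and these p-values lend it no support. Neither could be tested when detection on all 4 arrays was required. Trypsinogen genes are related copies of each other, so probes of this family may share their targets, which was not tested. Of the 2 probes of the trypsinogen Prss1, 1 read 15.1 and 10.2 with vehicle and 5.84 and 4.65 with GKA, detected on vehicle replicate 1 only. The other Prss1 probe read 3.97 and 5.07 with vehicle and 6.81 and 4.18 with GKA, was not detected on any of them, and its groups overlapped.

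Cela1, an elastase gene, had intensities of 278 and 323 against 160 and 189 and a log2 fold change of -0.40 ± 0.13 (adjusted p = 0.0956), which did not pass. The chymotrypsin-like genes Ctrl (0.13) and Ctrc (0.12) did not pass either.

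None of the 3 tested genes of other lipases, amylases and nucleases passed, a count of 0 in limma, also at an unadjusted p under 0.05. The lipase-related gene Pnliprp1 read 40.9 and 51.0 with vehicle, 21.8 on GKA replicate 1 and 2.85 on GKA replicate 2, where it was not well above background, and its log2 fold change of -2.15 ± 0.93 did not pass (adjusted p = 0.162). The salivary-type amylase gene Amy1 (-0.13) and the pancreatic amylase gene Amy2a5 (-0.36) did not pass. Of the zymogen granule and secretory proteins, 4 of 8 were tested and 0 passed in limma, with 1 at an unadjusted p under 0.05, the granule protein Sycn (0.42, adjusted p = 0.108). The disulfide isomerase Pdia2 stood at -0.31 and the ER protein Erp27 at -0.07. Of 6 acinar transcription factors and receptors, 4 were tested and 0 passed, also at an unadjusted p under 0.05. Rbpjl, the acinar subunit of PTF1, had scaled log2 signals of -5.80 and -5.75 with vehicle and of -5.84 and -5.65 with GKA, where it was not well above background on either array. Chrm3, the muscarinic receptor through which acetylcholine drives acinar secretion, stood at -0.13 ± 0.14, and Nr5a2, a nuclear receptor of the acinar program, stood at -0.30 ± 0.13 (adjusted p = 0.158). Ptf1a was not tested, as it was not well above background on 3 arrays and its spot on GKA replicate 2 carried an outlier mark.

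Genes known as targets of BHLHA15 and of XBP1, its upstream regulator, were for the most part higher with GKA. Of 5 BHLHA15 targets, 3 were higher, where 9.2% of all tested genes were higher, 0 were lower and 2 did not pass, with a median of 0.56, beside -0.02 over all tested genes. In scaled signal both GKA arrays lay over both vehicle arrays in all 5, where the groups were separate in that direction in 32.1% of all tested genes. In the intensities as deposited this held for Rab3d, Copz2 and Gjb1 only. There Atp2c2 was lower on both GKA arrays (21.9 and 19.0 with vehicle, 18.4 and 18.7 with GKA). Rab26 overlapped, at 71.5 and 45.3 with vehicle and 56.8 and 71.4 with GKA. In scaled log2 signal Rab3d, a GTPase of zymogen granules, stood at 1.84 and 1.65 with vehicle and at 2.30 and 2.52 with GKA (log2 fold change 0.66 ± 0.14, adjusted p = 0.0367). Copz2, a subunit of the COPI coat of transport vesicles, stood at 0.37 and 0.27 against 0.96 and 0.96 (0.64 ± 0.12, adjusted p = 0.0254). Gjb1, a connexin of the gap junctions between acinar cells, stood at -2.00 and -2.09 against -1.46 and -1.50 (0.56 ± 0.12, adjusted p = 0.0335). These 3 genes are also made by other cell types. The GTPase Rab26 (0.54 ± 0.25) and the calcium pump Atp2c2 (0.25 ± 0.14) did not pass. With spike-in scaling Rab3d lay at 0.07, Copz2 at 0.05 and Gjb1 at -0.03, none of which passed. None of the 3 kept its call without scaling, with dim probes kept in, or without vehicle replicate 2 or either GKA replicate, 2 kept it without vehicle replicate 1, and 1 kept it with the replicate number as a block.

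Of 10 genes of XBP1 and its targets, 7 were higher, where 9.2% of all tested genes were higher, 0 were lower and 3 did not pass, with a median of 0.81. In scaled log2 signal Sdf2l1, a co-factor of ER chaperones, stood at 1.98 and 1.91 with vehicle and at 3.39 and 3.32 with GKA (1.42 ± 0.12, adjusted p = 0.00470). Sec24d, a cargo-binding subunit of the COPII coat, rose by 1.14 ± 0.22, Creld2, a secreted ER stress protein, by 1.10 ± 0.12, and Dnajb11, an ER co-chaperone, by 0.92 ± 0.12. Xbp1 itself stood at 5.46 and 5.43 against 5.80 and 5.88, at 0.40 ± 0.12, and did not pass (adjusted p = 0.0715), and the probe signal does not show the splicing that activates it. Edem1, which directs misfolded proteins to degradation, stood at -0.43 ± 0.15 and did not pass (adjusted p = 0.0995). Of the 7, 1 kept its call with spike-in scaling, where Hspa5, the ER chaperone BiP, lay at -0.07, and 1 when dim probes were kept in. Without 1 array 2 to 6 kept it, with 2 without GKA replicate 2 and 3 without GKA replicate 1. The lists were chosen with earlier results of these data known, so the counts are a description and no independent support. Hspa5 had intensities of 77915 and 82626 with vehicle and 87565 and 89836 with GKA, far over those of the measured acinar enzymes. Which cells made the RNA of this list was not tested, nor was the part of XBP1 or BHLHA15 in the changes.

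**Figure D3:**
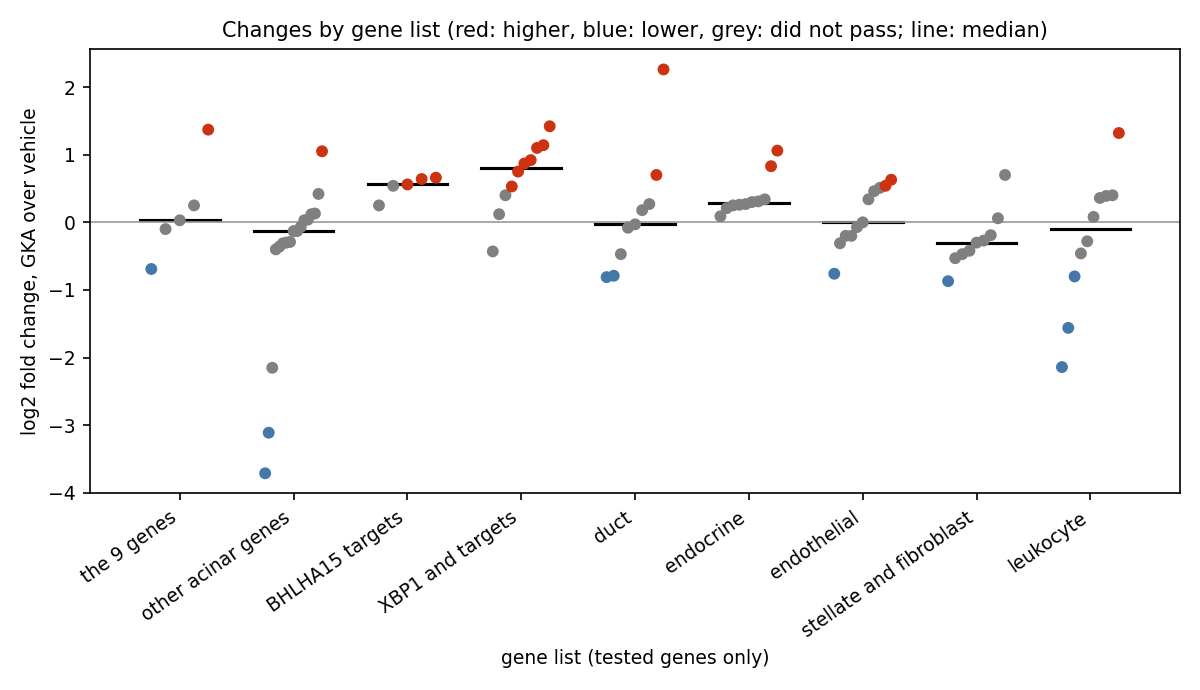
Log2 fold change of GKA over vehicle for the tested genes of each list (1 point per gene, coloured by the limma call) with the list median as a line. The medians are 0.03 for the 5 tested of the 9 genes, -0.13 for the other acinar genes, 0.56 for BHLHA15 targets and 0.81 for XBP1 and its targets, and the lists of other cell types lie between -0.30 and 0.29.

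The 3 measured enzymes that did not pass varied between arrays of the same group. Vehicle replicate 1 exceeded vehicle replicate 2 by 0.66 in Ctrb1, by 0.47 in Clps and by 0.31 in Cel on the scaled log2 scale. GKA replicate 1 exceeded GKA replicate 2 by 0.25, 0.23 and 0.30 in the same order. Within both groups replicate 1 was thus the brighter array for all 3, as it was for 7 of the 17 other acinar genes and for 38.4% of all tested genes. Rnase1 ran the other way, with differences of replicate 1 minus replicate 2 of -0.21 with vehicle and -0.23 with GKA. For all 3 enzymes the difference between the vehicle arrays exceeded the difference between the group means.

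Markers of other cell types that an islet preparation can hold were read on the same arrays, and their counts stand beside 9.2% of all tested genes higher and 7.94% lower. The 10 endocrine markers were all well above background on all 4 arrays. Of these, Mafa (1.06) and the somatostatin gene Sst (0.83) were higher and 8 did not pass. Their summed level on the scaled log2 scale was 11.34 to 11.38 with vehicle and 11.61 to 11.68 with GKA. In the unscaled ratios that the authors deposited, Mafa (1.6) and Sst (1.37) lay above 1. The 8 others lay below it there, from 0.817 (Ppy) to 0.973 (Nkx6-1). Of 12 duct markers, the cells next to acini, 9 were tested, with Spp1 (2.26) and Prom1 (0.70) higher, Cldn4 (-0.81) and Krt7 (-0.79) lower, 5 that did not pass and a summed level of 5.76 to 5.84 with vehicle and 6.14 to 6.21 with GKA. The defining duct markers Cftr and Onecut1, and Car2, were not detected on any of the 4 arrays. Of 9 stellate and fibroblast markers tested, Col1a2 (-0.87) was lower and 8 did not pass. The summed level of that list was lower with GKA, at 2.66 and 2.99 with vehicle and 2.32 and 2.44 with GKA. Of 10 leukocyte markers tested, Lyz2 (-2.14), Aif1 (-1.56) and Emr1 (-0.80) were lower, Cd14 (1.32) was higher and 6 did not pass. The leukocyte sum was 3.03 and 2.86 with vehicle and 3.09 and 3.01 with GKA. Lyz2 was not detected on 1 of the GKA arrays. The part of these cell types in the values of the acinar genes was not tested.

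**Figure D4:**
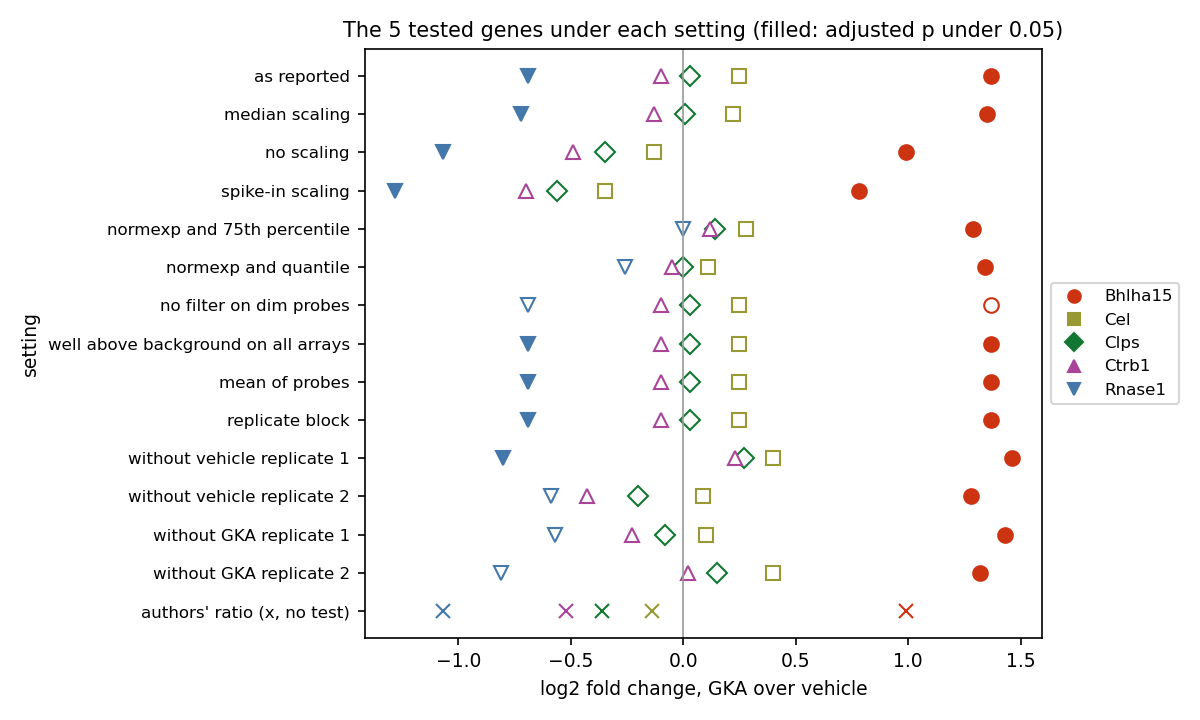
Log2 fold change of GKA over vehicle for the 5 tested genes under the reported setting (top) and each alternative, with filled markers where the adjusted p was under 0.05 and crosses for the authors' ratio, which has no test. Bhlha15 lies between 0.78 and 1.46 in every setting shown, Rnase1 lies between -1.28 and 0.00, and Cel, Clps and Ctrb1 lie on both sides of 0.

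In the authors' deposited table, which holds 1 ratio of GKA over control per probe without scaling between arrays, the ratio was 1.99 for Bhlha15, 0.477 for Rnase1, 0.909 for Cel, 0.777 for Clps and 0.698 for Ctrb1. The median over all non-control probes of the authors' deposited table was 0.841, so Cel lay above that median and Clps and Ctrb1 below it. For the 4 genes that were not well above background, the authors' deposited table gives 1.02 for Cpa1, 0.714 for Cpb1, 1.05 for Pnlip and 0.310 for Prss2.

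The named genes whose deviations from their own mean over the 4 arrays were most like those of Bhlha15 were Nxph3, Hapln4, Slc2a6, Adam25 and Lgals12, with root mean square differences of 0.042 to 0.060 on the log2 scale. For Rnase1 they included Plcb1, Cspg4, Sfrs2ip and Hs6st3, at 0.034 to 0.042. For the mean of Ctrb1, Cel and Clps they were Csrnp3, Rfx7, Olfr1350, Tcea3 and Rmrp, at 0.016 to 0.022. With 4 arrays many genes came this close: 40 genes lay within 0.1 of Bhlha15, 95 of Rnase1 and 320 of the enzyme mean.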

How the data were processed

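Total RNA of 4 islet samples was labelled with Cy3 and hybridised to 1-colour Agilent arrays. The deposited array files give an intensity per spot, background-subtracted and detrended by Agilent Feature Extraction (version 10.7.3.1 per the file headers, 9.1 per the submitters' processing notes). The authors' deposited table gives 1 intensity per group and 1 ratio of GKA over control per probe, and supplied gene names and mm9 probe positions. No spot was saturated, a count of 0.

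The log2 intensity minus each array's 75th percentile was used. Control spots and spots with outlier marks were left out. A probe was kept if both arrays of either group marked it as well above background, with the brightest probe for each gene, and 17178 of 26265 genes were tested in limma 3.58.1 (R 4.3.3), two-sided, with 2 residual and 3.48 prior degrees of freedom. The code was tested on simulated data. An exact permutation of 2 against 2 arrays cannot give p below 0.333. The number of arrays limits precision.

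All 9 genes are named. Of each list, up to 4 passing genes per direction are named, or the 2 brightest; other names, such as Cela1, Ctrl, Ctrc, Amy2a5, Sycn, Rbpjl, Rab26, Atp2c2, Hspa5, Ptf1a, Prss1, Xbp1 and Edem1, were chosen after their values were seen. Values of some genes that these rules or the likeness ranking would name are not reported here. The genes and lists were chosen with earlier results of these data known. Alternatives were other scalings, normexp with an offset of 50 on the median spot and background signals (the mean signal had been planned, and the median is what the files used here hold), other probe filters, the mean of probes, a replicate block and leaving out each array.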

Additional observations from a re-analysis of the deposited data

Results flagged for a closer look

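The spot of Ptf1a, the pancreatic subunit of PTF1, on GKA replicate 2 lay outside the comparisons because it carried an outlier mark. Its intensity was 795 ± 129 (spot error), against 2.89 to 4.03 on the other 3 arrays, where it was not well above background. In the authors' deposited table, where the mark was not applied, the Ptf1a intensity was 399 for GKA and 3.73 for control. No second Ptf1a probe was on the array.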

How the results depend on the processing

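Of the 9 acinar genes, 2 passed in the reported fit and also with median, no or spike-in scaling, with probes well above background on all arrays, with the mean of probes and with the replicate block. The count was 1 with normexp and either normalisation, 0 without the filter on dim probes, and 1 to 2 when 1 array was left out, being 1 without vehicle replicate 2, GKA replicate 1 or GKA replicate 2. Bhlha15 kept its direction in every alternative, from 0.78 to 1.46, with adjusted p from 0.000104 to 0.0531. Rnase1 ranged from -1.28 to 0.00, with adjusted p from 0.000388 to 0.989. With spike-in scaling limma gave all 5 tested genes of the 9 the same SE of 0.31, so their order in p follows the size of the change alone.

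Values that crossed 0 were, without scaling, Cel (-0.13) and Clps (-0.35), and with spike-in scaling, Cel (-0.35), Clps (-0.56), Gjb1 (-0.03) and Hspa5 (-0.07). Ctrb1 stood at 0.12 with normexp and the 75th percentile, and at -0.43 to 0.23 without 1 array, with 0.23 without vehicle replicate 1 and 0.02 without GKA replicate 2. Clps stood at 0.00 with normexp and quantile normalisation, and at -0.20 to 0.27 without 1 array, with -0.20 without vehicle replicate 2 and -0.08 without GKA replicate 1. Cel, Clps and Ctrb1 did not pass in any alternative.

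The 2944 changed genes became 8404 without scaling, 7147 with spike-in scaling, 5059 with normexp and the 75th percentile, 230 without the filter on dim probes, 1720 with the replicate block and 576 to 2877 when 1 array was left out. The 3 changed genes among the other acinar genes became 10 both without scaling and with spike-in scaling, 5 with normexp and quantile normalisation, 1 without the filter, 1 with probes well above background on all arrays and 2 to 3 without 1 array. The median of that list, -0.13, became -0.51 without scaling, -0.72 with spike-in scaling, 0.11 with normexp and the 75th percentile, 0.13 without the filter and -0.31 to -0.07 without 1 array. The 14 changed markers of other cell types became 23 without scaling, 0 without the filter and 2 to 12 without 1 array, and their median, 0.08, became -0.31 without scaling, -0.52 with spike-in scaling and 0.00 to 0.20 without 1 array. Where scaling is changed the whole array moves; for the other settings the cause was not tested.

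The replicate numbers are shared by the groups, but nothing in the labels says that they mark a shared mouse or day. The deviations of same-numbered arrays correlated with r = 0.0751 across genes, which are not independent. With the number as a block, 1720 genes passed, Bhlha15 (adjusted p = 0.0286) and Rnase1 (adjusted p = 0.0436) among them, and Rab3d (0.0712) and Gjb1 (0.0562) did not. Signal over background is a limit: 4 of the 9 genes gave no value above it.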
